A study of Homo sapiens with 8 samples.

Results

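The 10 genes described here encode the core of polyamine metabolism: the breakdown enzymes SAT1, SMOX and PAOX, the synthesis enzymes ODC1, AMD1, SRM and SMS, and the proteins that set the stability of ornithine decarboxylase, OAZ1, OAZ2 and AZIN1. They were taken by symbol from the tables of 24 h and 48 h. All 10 were among the 24077 genes present in both tables, and all 10 passed the filter on low counts that kept 15248 genes. RNA-seq was done on AML-OCI3, which is a cell line from human acute myeloid leukaemia, with 2 libraries in each of 4 groups. The control groups were given the vehicle DMSO and collected at 24 h or 48 h. The treated groups were given 40 nM JIB-04, a small-molecule inhibitor of Jumonji-domain histone demethylases, and were collected at the same times. No genotype or further agent is given in the labels of any of these groups. All values come from 1 cell line, and the labels do not say that the replicates are separate cultures. The p-values therefore measure the spread between these libraries, which may be technical. In bulk RNA, fewer cells that express a gene and less of its RNA per cell cannot be told apart.

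Polyamines (putrescine, spermidine and spermine) are small positively charged molecules that bind nucleic acids and are needed for growth. Ornithine decarboxylase (ODC1) makes putrescine, and the synthases SRM and SMS add aminopropyl groups, supplied through AMD1, to give spermidine and then spermine. SAT1 acetylates spermidine and spermine, which marks them for export or for oxidation by PAOX, whereas SMOX oxidises spermine directly. Antizymes (OAZ1, OAZ2) bind ornithine decarboxylase and direct it to the proteasome, and AZIN1 binds antizymes in its place. Much of the control of these proteins lies in translation and protein stability, which RNA counts do not measure. SAT1 has been linked to ferroptosis as a p53 target, and the series concerns ferroptosis in this leukaemia.

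Library totals lay between 18783093 and 22193377 counts, and 1 count corresponded to 0.0453 to 0.0544 CPM (counts scaled to the library's total). All 8 markers of myeloid cells passed the filter, with a summed level of 459 to 647 CPM per library. The lowest sums were in DMSO at 48 h, 459 to 484 CPM, against 573 to 647 CPM with JIB-04 at 48 h. Summed erythroid, B-cell and epithelial markers stayed at or below 0.381 CPM in every library. Replicates differed with the GC content of the genes in 3 of the 4 groups. Across 9529 genes, Spearman's rank correlation between GC content and the log2 difference of replicate 1 from replicate 2 was -0.802 and 0.0224 for the DMSO groups of 24 h and 48 h. For the JIB-04 groups of 24 h and 48 h it was 0.879 and 0.835. These are correlations across genes within pairs of libraries, and genes are not independent replicates.

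SAT1, the rate-limiting enzyme of polyamine breakdown, was the only gene among the 10 that passed the test between JIB-04 and DMSO, at 48 h. At 24 h its DMSO libraries held 10.2 and 7.66 CPM, and the JIB-04 libraries held 16.5 and 18.8 CPM. At 48 h the DMSO libraries held 13.6 and 13.5 CPM, and the JIB-04 libraries held 44.2 and 46.6 CPM. The treated libraries were above the control libraries of the same time at both times, and the 48 h treated pair lay above all other libraries. The reads behind these levels numbered 169 to 370 per library outside the 48 h treated group and 813 and 983 within it. At 48 h SAT1 rose by a log2 fold change of 1.74 ± 0.17 (SE), a fold change of 3.34, with an adjusted p of 0.00701 in edgeR's quasi-likelihood test. At 24 h the log2 fold change was 0.99 ± 0.17 (SE), a fold change of 1.98, and did not pass at an adjusted p of 0.123 (unadjusted p = 0.000324). The authors' deposited table gives SAT1 a log2 fold change of 1.73 at 48 h with an adjusted p of 2.27e-22, and 0.97 at 24 h with an adjusted p of 0.60.

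**Figure D1:**
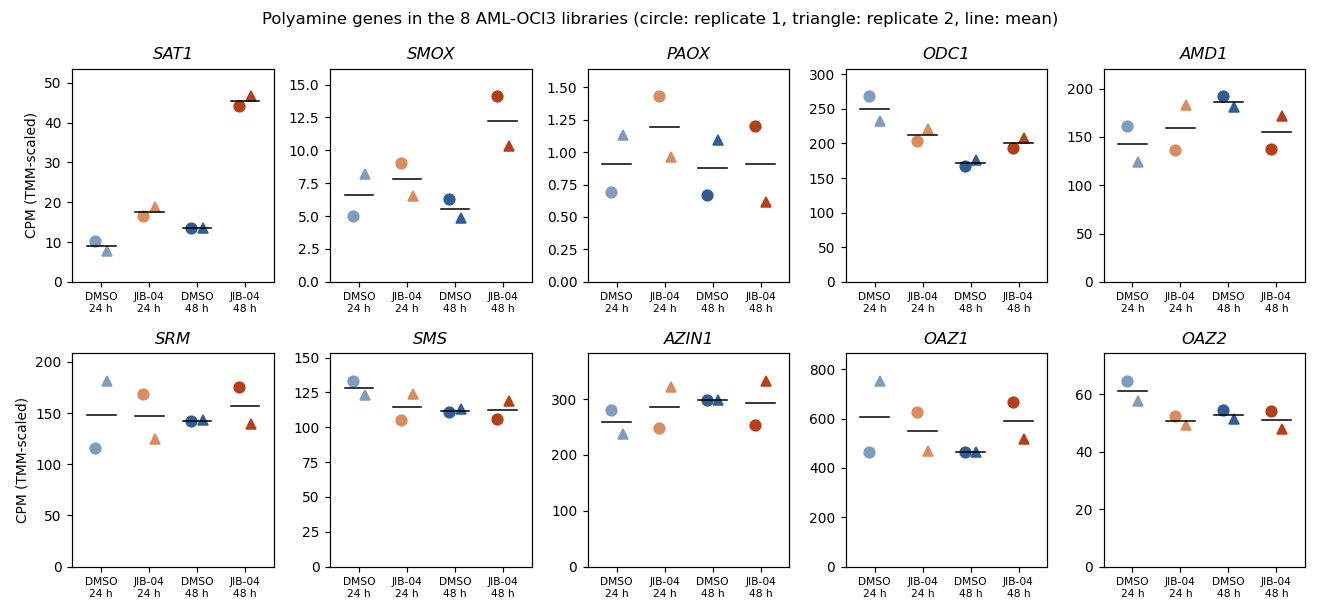
Level of each of the 10 genes in every library, in CPM on linear axes from 0, with 1 panel for each gene and the 4 groups side by side. Circles are replicate 1, triangles replicate 2 and lines the mean of each group. At 48 h SAT1 reaches 44.2 and 46.6 CPM in the JIB-04 libraries against 13.6 and 13.5 CPM in the DMSO libraries of the same time, and its 24 h libraries hold 7.66 to 18.8 CPM.

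The 48 h call of SAT1 rested on all 4 libraries of that time. It was lost in each edgeR fit that left out 1 of them. The log2 fold change was then 1.74 without DMSO replicate 1 and 1.73 without DMSO replicate 2. Without JIB-04 replicates 1 and 2 it was 1.75 and 1.70. Each such fit leaves 1 library in a group, and most other genes called at 48 h were lost in it too. Over 17 alternative settings the log2 fold change stayed between 1.70 and 1.75, and SAT1 was called in 12. A replicate block was among the settings that lost the call (adjusted p = 0.0524 in edgeR). At 24 h the value ranged from 0.80 to 1.20, and SAT1 was called in 4 of 17 settings. Among these were DESeq2 (adjusted p = 0.00243) and edgeR with the GC trend of each library removed (adjusted p = 0.00164). The calls at both times also count a crossed block, in which the replicate numbers of DMSO at 24 h were swapped. That block was set after the data were seen, so its calls are no separate support. The GC fit called 1631 genes at 24 h. Its p-values are too small to the extent that the fitted trend was treated as known.

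**Figure D2:**
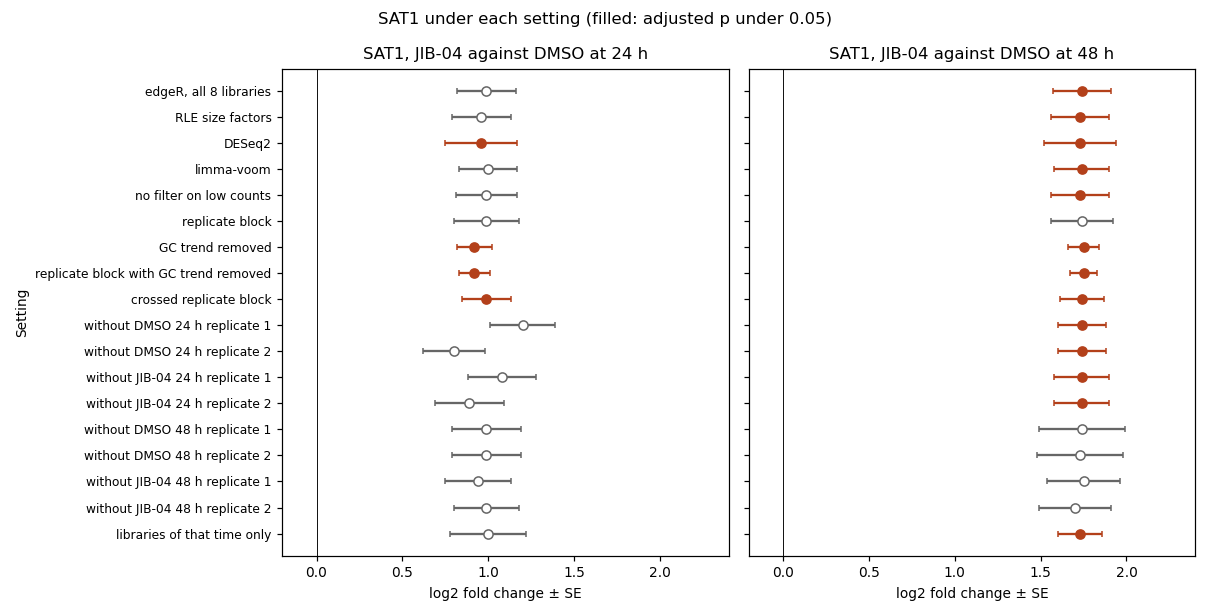
Log2 fold change of SAT1 between JIB-04 and DMSO at 24 h and at 48 h under each alternative setting, with bars of 1 SE and filled points where the adjusted p was under 0.05. The 48 h values stay within 1.70 to 1.75, and the 24 h values spread from 0.80 to 1.20.

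SAT1 was also higher at 48 h than at 24 h within the treated groups, by a log2 fold change of 1.37 ± 0.16 (SE), with an adjusted p of 0.0211 in edgeR. This comparison shares its 48 h treated libraries with the comparison at 48 h, so it is not independent of it. The call was lost without any single JIB-04 library of either time or any single DMSO library of 48 h. Most other genes called in this comparison were lost in those fits too. In DMSO alone the difference between the times was 0.61 ± 0.17 (SE) and did not pass in edgeR (unadjusted p = 0.00651, adjusted p = 0.197). Over 16 alternative settings it ranged from 0.42 to 0.83. It was called in 3 of them, the crossed block and both fits with the GC trend removed. The JIB-04 effect at 48 h exceeded that at 24 h by 0.76 ± 0.23 (SE) on the log2 scale, with an unadjusted p of 0.0113 and an adjusted p of 0.931 in edgeR. With the GC trend removed the difference was 0.83 and passed (adjusted p = 0.0288), in a fit that called 167 genes against 0 without the removal.

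By its unadjusted p-value SAT1 ranked 9 of 15248 genes at 48 h. By its log2 fold change it ranked 122 of the same genes, counted from the highest, and 24 called genes, SAT1 included, had a log2 fold change of at least that of SAT1. SAT1 lies at chrX:23783173-23786226 on the plus strand of hg38, and GENCODE 29 gives it 9 transcripts and no overlapping gene. Its neighbours ACOT9, APOO, PRDX4 and KLHL15 had log2 fold changes of 0.09 to 0.16 at 48 h, and none passed. The table from RefSeq (GRCh38.p14) held a promoter for 7 of the 10 genes. The 250 bases before the SAT1 start, chrX:23782923-23783172 on the plus strand, are printed because SAT1 carries the called change. Capitals mark its matches to CCAAT, read on both strands (ATTGG is the match on the reverse strand):
SAT1: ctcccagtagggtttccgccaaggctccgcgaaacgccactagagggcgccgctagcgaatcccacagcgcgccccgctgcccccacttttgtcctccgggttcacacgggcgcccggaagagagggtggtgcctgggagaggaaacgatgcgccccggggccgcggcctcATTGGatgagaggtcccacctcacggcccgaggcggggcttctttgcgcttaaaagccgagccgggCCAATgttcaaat

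These matches begin at positions -79 and -13 from the start, and 32.0% of the 34796 promoters in the table hold CCAAT in the same window on either strand. Windows of AMD1, SMS, OAZ1 and SRM hold it too, with 2 matches each in OAZ1 and SRM. None of those genes passed between JIB-04 and DMSO in the edgeR fit of all libraries. The letters of 5 other motifs, also searched on both strands, are not in the SAT1 window. The AP-1 motif TGANTCA is held by 6.59% of promoters and the CRE motif TGACGTCA by 1.64%. The antioxidant response element TGACNNNGC is held by 10.9% and the ATF4 motif TGATGNAA by 3.16%. The last, the E-box CACGTG bound by MYC and its partners, is held by 6.31%, and it was present in the windows of SRM and of an inner ODC1 start. Both are printed as 30 bases on the minus strand, with the E-box in capitals, because these are the synthesis enzymes described below. SRM lies at chr1:11060200-11060229 and the ODC1 stretch at chr2:10448024-10448053:
SRM: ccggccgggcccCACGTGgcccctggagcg
ODC1: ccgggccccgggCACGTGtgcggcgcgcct

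SMOX, the spermine oxidase, was higher in both treated libraries at 48 h without passing the test. At 48 h the DMSO libraries held 6.27 and 4.86 CPM of it and the JIB-04 libraries 14.1 and 10.3 CPM. At 24 h the DMSO libraries held 5.00 and 8.20 CPM and the JIB-04 libraries 9.07 and 6.54 CPM. The groups did not overlap at 48 h and overlapped at 24 h. The 48 h log2 fold change was 1.14 ± 0.29 (SE) with an adjusted p of 0.231 in edgeR. It passed with the GC trend removed (log2 fold change 0.92, adjusted p = 0.00523) and in a fit of the 48 h libraries alone (1.13, adjusted p = 0.00848). These fits called 1226 and 496 genes at 48 h, against 59 in the fit of all libraries. The authors' deposited table gives SMOX an adjusted p of 0.00527. SMOX has a GC content of 61.0%, and its replicates lay apart in every group, in DMSO at 48 h by a log2 difference of 0.36, where the replicates did not differ with GC content over all genes. PAOX, which oxidises acetylated polyamines, was close to the floor of detection, with 13 to 31 counts per library. Its log2 fold change was 0.38 ± 0.46 (SE) at 24 h and 0.02 ± 0.48 (SE) at 48 h, and its replicates lay apart by log2 differences of 0.52 to 0.86 in size. The SE exceeded both values.

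None of the 4 synthesis enzymes passed the test between DMSO and JIB-04 at either time in the edgeR fit of all libraries. ODC1, the first enzyme of the pathway, stood at 268 and 232 CPM in the DMSO libraries of 24 h and at 203 and 221 CPM in the JIB-04 libraries. At 48 h the DMSO libraries held 167 and 176 CPM and the JIB-04 libraries 193 and 208 CPM. The treated pair lay below the controls at 24 h and above them at 48 h, and the control pair of 24 h was the highest. Its log2 fold changes were -0.24 ± 0.12 (SE) at 24 h (adjusted p = 0.506) and 0.23 ± 0.12 (SE) at 48 h (adjusted p = 0.582) in edgeR. In DMSO the difference of 48 h from 24 h was -0.54 ± 0.12 (SE) and did not pass (adjusted p = 0.112). DESeq2 (adjusted p = 0.00959) and edgeR with the GC trend removed (adjusted p = 0.00745) called that difference. Those fits called 227 and 2065 genes in this comparison, against 65 in the edgeR fit without the removal. The values in DMSO use the same control libraries as the comparisons with JIB-04.

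AMD1, which supplies the aminopropyl donor, stood at 192 and 181 CPM in the DMSO libraries of 48 h and at 138 and 172 CPM in the JIB-04 libraries. At 24 h the DMSO libraries held 161 and 124 CPM and the JIB-04 libraries 136 and 183 CPM. The groups did not overlap at 48 h, with the treated pair lower, and they overlapped at 24 h. The 48 h log2 fold change was -0.26 ± 0.19 (SE) with an adjusted p of 0.687 in edgeR. With the GC trend removed it was -0.24 and passed (adjusted p = 0.0459), in a fit that called 1226 genes against 59. With a replicate block added to the GC fit AMD1 did not pass (adjusted p = 0.0688). SRM, the spermidine synthase, had log2 fold changes of -0.01 ± 0.23 (SE) at 24 h and 0.14 ± 0.23 (SE) at 48 h. SMS, the spermine synthase, had -0.16 ± 0.12 (SE) and 0.01 ± 0.12 (SE). The libraries of both genes overlapped between DMSO and JIB-04 at both times.

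Of the regulators of ornithine decarboxylase, the antizyme OAZ1 had the highest level of the 10 genes in TPM. At 24 h its DMSO libraries held 464 and 751 CPM and its JIB-04 libraries 626 and 470 CPM. At 48 h the DMSO libraries held 464 and 464 CPM and the JIB-04 libraries 666 and 517 CPM. The control pair of 24 h lay far apart, 1 near the lowest level of any library and 1 above all others, and the groups did not overlap at 48 h. The 48 h log2 fold change was 0.35 ± 0.23 (SE) with an adjusted p of 0.67 in edgeR, and 0.12 with the GC trend removed. OAZ2, a second antizyme, had -0.26 ± 0.12 (SE) at 24 h (adjusted p = 0.501) and -0.05 ± 0.13 (SE) at 48 h (adjusted p = 0.927). Its treated pair lay below the controls at 24 h and overlapped them at 48 h. With the GC trend removed the 24 h value was -0.27 (adjusted p = 0.0523 in edgeR). With a replicate block added to the GC fit it was -0.28 and passed (adjusted p = 0.0308), in a fit that called 1331 genes. AZIN1, the antizyme inhibitor, had 0.14 ± 0.17 (SE) at 24 h and -0.03 ± 0.17 (SE) at 48 h, and its libraries overlapped at both times. AC005258.1 lies on the same strand within OAZ1 and held at most 7 counts in any library.

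**Figure D3:**
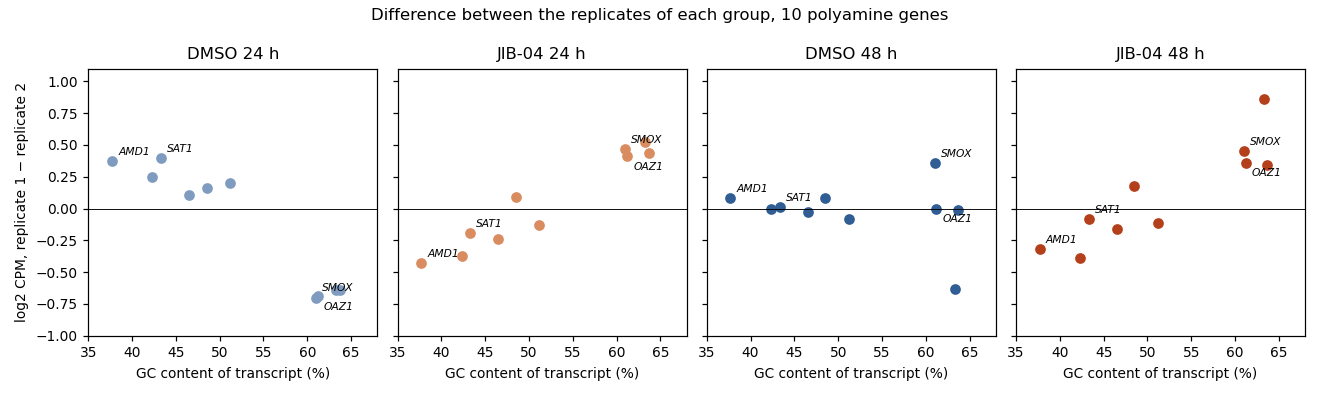
Log2 difference between replicate 1 and replicate 2 of each of the 10 genes against the GC content of its longest transcript in percent, with 1 panel for each group. The 4 genes above 60% GC lie at -0.70 to -0.64 in the 24 h DMSO panel and at 0.34 to 0.86 in the 48 h JIB-04 panel.

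The GC contents of the 10 genes ran from 37.7% (AMD1) through 43.3% (SAT1) to 63.7% (SRM). The 4 genes above 60% (SMOX, OAZ1, PAOX and SRM) had a log2 difference of replicate 1 from replicate 2 between -0.70 and -0.64 in DMSO at 24 h. In the JIB-04 groups the same difference was 0.41 to 0.52 at 24 h and 0.34 to 0.86 at 48 h. With the GC trend removed, the log2 fold change of SAT1 was 0.92 at 24 h and 1.75 at 48 h.

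**Figure D4:**
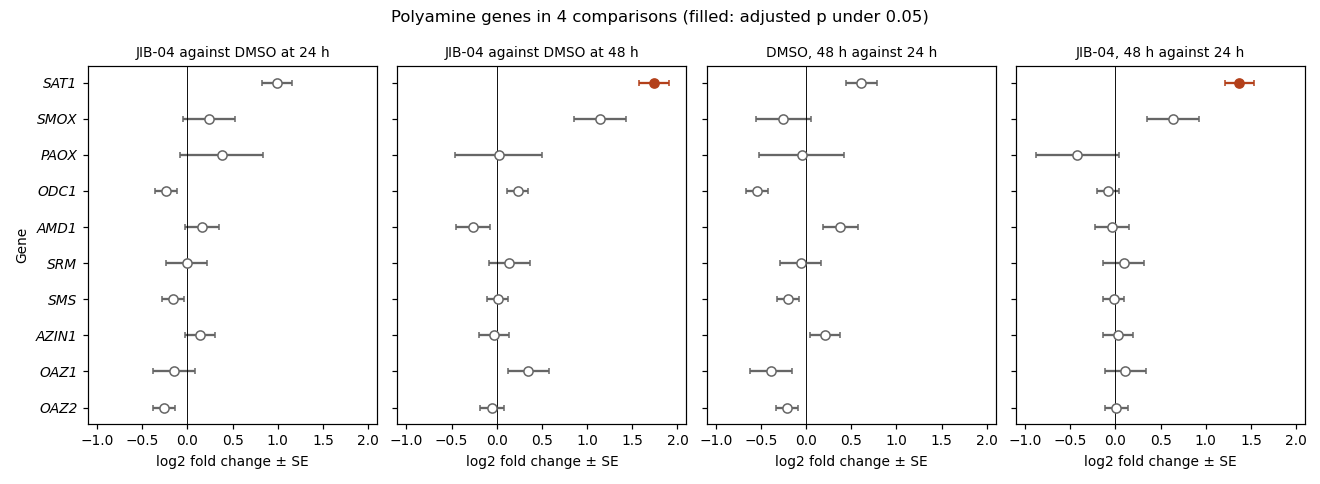
Log2 fold change of each of the 10 genes between JIB-04 and DMSO at 24 h and at 48 h and between the times within each treatment, with bars of 1 SE from the edgeR fit and filled points where the adjusted p was under 0.05. Between JIB-04 and DMSO, SAT1 stands at 0.99 and 1.74, SMOX at 0.24 and 1.14, and the other 8 genes between -0.26 and 0.38.

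The 10 genes were chosen with earlier results of these data known, so the shares below are descriptions and no test of the set. At 48 h 1 of the 10 genes (SAT1) was called by edgeR, against 0.387% of all genes tested (0.315% called higher). SAT1 and SMOX had an unadjusted p under 0.05 there, 2 of 10 (9.69% of all genes). At 24 h 0 of 10 were called, as for all genes (0%). There 1 of 10, SAT1, had an unadjusted p under 0.05 (10.8% of all genes). At 24 h DESeq2 called SAT1, among 91 genes in all, and limma-voom called 0 of the 10. For the difference between the effects 0 of 10 were called (0% of all genes), and 2 of 10 had an unadjusted p under 0.05 (5.23%), with 0 called by DESeq2 and by limma-voom. In DMSO over time 0 of 10 were called (0.426%), with 2 of 10 at an unadjusted p under 0.05 (12.2%). There DESeq2 called 1 of the 10 (ODC1), among 227 genes in all, and limma-voom 0 of the 10, with 57 in all. Within the JIB-04 groups over time 1 of 10, SAT1, was called (0.203%, and 0.177% called higher). At 48 h the libraries of 5 of the 10 genes did not overlap between DMSO and JIB-04, near the 49.5% of all genes. Of these, 4 were higher (25.8% of all genes) and 1 was lower (23.7%). At 24 h this held for 3 of 10, against 33.8%, with 1 higher (18.1%) and 2 lower (15.6%). The 1 higher was SAT1, and the 2 lower were ODC1 and OAZ2. The median log2 fold change over the 10 genes was 0.06 at 24 h and 0.08 at 48 h, against 0.02 and 0.01 over all genes tested.

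The time comparisons hold the remaining values of the 10 genes. In DMSO the libraries of 7 of the 10 genes did not overlap between 24 h and 48 h (44.6% of all genes), 3 higher at 48 h (25.9%) and 4 lower (18.7%). Those higher at 48 h were SAT1, AMD1 with a log2 fold change of 0.38 ± 0.19 (SE) and AZIN1 with 0.21 ± 0.17 (SE). Those lower were ODC1, OAZ1 with -0.39 ± 0.23 (SE), OAZ2 with -0.21 ± 0.12 (SE) and SMS with -0.20 ± 0.12 (SE), and no gene of either direction passed in edgeR. Within the JIB-04 groups 2 of 10 did not overlap, both higher at 48 h (32.7% of all genes in either direction and 16.6% higher). These were SAT1 and SMOX, the latter with 0.64 ± 0.29 (SE) and an adjusted p of 0.589. PAOX was in neither set, with -0.42 ± 0.46 (SE) in the JIB-04 groups, and the other 7 genes there lay between -0.08 and 0.11. For the difference between the JIB-04 effects of 48 h and 24 h, SMOX had 0.90 ± 0.41 (SE), ODC1 0.47 ± 0.16 (SE) and AMD1 -0.42 ± 0.26 (SE), each with an adjusted p of 0.931.

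Levels of different genes were compared in TPM, the authors' values, which are scaled to the library and divided by transcript length. The median over the 8 libraries was 932 TPM for OAZ1, 166 for SRM, 136 for AZIN1, 135 for ODC1, 97.1 for SMS, 77.0 for AMD1, 51.1 for OAZ2, 23.0 for SAT1, 5.13 for SMOX and 0.89 for PAOX. The ranges over libraries of neighbours in this order overlapped except between OAZ1 and SRM, AMD1 and OAZ2, SAT1 and SMOX, and SMOX and PAOX. SAT1 stood at 8.71% and 7.66% of the ODC1 level in TPM in the DMSO libraries of 24 h and at 17.9% and 19.4% with JIB-04. At 48 h the DMSO libraries gave 19.2% and 16.9% and the JIB-04 libraries 50.3% and 50.9%. Against AZIN1, whose GC content of 42.3% is close to that of SAT1, the DMSO libraries of 48 h gave 15.1% and 14.1% and the JIB-04 libraries 45.4% and 34.9%. The treated libraries lay above the control libraries of the same time in both ratios.

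The summed TPM of the breakdown enzymes (SAT1, SMOX, PAOX) was 5.66% and 5.03% of that of the synthesis enzymes (ODC1, AMD1, SRM, SMS) in DMSO at 48 h. In the JIB-04 libraries of 48 h the share was 15.0% and 15.5%. At 48 h the synthesis enzymes summed to 447 and 459 TPM in DMSO and to 455 and 455 TPM with JIB-04. The breakdown enzymes summed to 25.3 and 23.1 TPM in DMSO and to 68.4 and 70.6 TPM with JIB-04. Of these sums SAT1 alone held 20.43 and 19.23 TPM in DMSO and 59.36 and 64.36 TPM with JIB-04. The shares at 48 h therefore differed mainly through SAT1, whose change is given above. At 24 h the DMSO libraries gave shares of 3.73% and 3.34% and the JIB-04 libraries 6.35% and 6.84%. The ratio of antizyme (OAZ1, OAZ2) to its binding partners (ODC1, AZIN1) in TPM spread from 3.05 to 5.46 and overlapped between DMSO and JIB-04 at both times.

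Further genes of polyamine transport and metabolism were read as a list of 18, of which 9 passed the filter. At 48 h 0 of the 9 were called by edgeR (0.387% of all genes) and 3 had an unadjusted p under 0.05 (9.69%). The median log2 fold change was 0.09, against 0.01 over all genes tested. DESeq2 called 1 of them (SAT2), among 148 genes in all, and limma-voom 0 of them, with 52 in all. SAT2, a relative of SAT1 that acetylates thialysine, stood at 5.19 and 4.77 CPM in the DMSO libraries of 48 h and at 11.5 and 9.95 CPM in the JIB-04 libraries. The treated pair was higher, with a log2 fold change of 1.11 ± 0.18 (SE) and an adjusted p of 0.055 in edgeR, and the authors' deposited table gives it an adjusted p of 0.00574. SLC7A1, a transporter of ornithine and arginine, had -0.34 ± 0.12 (SE) with an adjusted p of 0.432.

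Of the 8 genes of the methionine cycle and salvage pathway, which recover the by-product of spermidine and spermine synthesis, 0 were called at 48 h (0.387% of all genes) and 1 had an unadjusted p under 0.05, near the 9.69% of all genes. MAT2A, which makes S-adenosylmethionine, had a log2 fold change of -0.32 ± 0.13 (SE, adjusted p = 0.487), and MTAP, which cleaves methylthioadenosine, had -0.27 ± 0.13 (SE, adjusted p = 0.55). Of the 4 genes of hypusine, a residue made from spermidine on the translation factor EIF5A, 0 were called and 0 had an unadjusted p under 0.05, against the same shares of all genes. DOHH, the hydroxylase, had 0.80 ± 0.55 (SE, adjusted p = 0.685) and EIF5A had -0.11 ± 0.13 (SE, adjusted p = 0.816).

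Of 5 genes tied to SAT1 or ODC1 control, 4 were tested. At 48 h 0 were called (0.387% of all genes) and 0 had an unadjusted p under 0.05 (9.69%), and a count of 0 among 4 genes is near those shares. NFE2L2, a transcription factor of the oxidative stress response, had a log2 fold change of 0.29 ± 0.16 (SE, adjusted p = 0.616), and its target NQO1 had 0.28 ± 0.16 (SE, adjusted p = 0.627). MYC, named after its values were seen because its E-box is printed above, had 0.38 ± 0.13 (SE, adjusted p = 0.349) at 24 h and 0.06 ± 0.13 (SE, adjusted p = 0.912) at 48 h.

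In the last 3 lists DESeq2 and limma-voom also called 0 genes at 48 h.

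The genes whose level ran most like that of SAT1 over the 8 libraries were sought among 449 others with a mean of at least 1 and an SD of at least 0.5 in log2 CPM. RND3 had a Pearson r of 0.977, and ZFP36L1, which promotes mRNA decay, had 0.972. BCL2A1, an anti-apoptotic BCL2 relative, had 0.956, GDF15, a secreted stress cytokine, 0.955, and PAQR5, a membrane progestin receptor, 0.949. The libraries fall into 4 groups, so these values describe a shared order of groups and carry no test. RND3 stood at 2.06 and 1.72 CPM in the DMSO libraries of 48 h and at 5.87 and 5.83 CPM in the JIB-04 libraries. RND3 was chosen for its likeness to SAT1 over these libraries, so the difference is a description.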

How the data were processed

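The authors deposited 1 table per time point with an expected count per gene and library, whole numbers per the file headers and values. The tables also hold TPM values computed by the authors, used here for levels between genes only. The authors' log2 fold change, p-value and adjusted p-value of JIB-04 against DMSO are deposited in the same tables, made with a tool that no label or header names. The submitters' processing notes name RSEM, cutadapt, STAR 2.6.1 and the build hg38, without saying whether counting used strand. Libraries were made from poly(A) RNA.

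Counts of the 24077 genes in both tables were used, of 29811 in either, and the genes left out held 0.00581% of counts. All 8 libraries were fitted together with edgeR 4.0.16 (R 4.3.3): filterByExpr, TMM scaling, 1 mean per group, 4 residual degrees of freedom, and two-sided quasi-likelihood F tests of 5 comparisons, with Benjamini-Hochberg adjustment over 15248 genes and calls under 0.05. The SE of a log2 fold change is its size over the square root of F. CPM use TMM-scaled totals. Script checks on simulated counts recovered the median size of the largest changes put in. Those counts held no GC trend between replicates, so the checks do not cover that feature of these libraries. Replicate pairs differed by more than sampling noise in each group. Alternatives were RLE scaling, DESeq2 1.42.0, limma-voom (limma 3.58.1), no filter, a replicate block, removal of a fitted GC trend per library (treated as known, so its p-values are too small to that extent), each library left out, and the libraries of 1 time alone. A crossed block, with the replicate numbers of DMSO at 24 h swapped, was added after the data were seen. GC content came from the longest GENCODE 29 transcript.

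The members and lists were chosen with earlier results of these data known. Named genes were every member, from the other lists each gene called in any comparison or else the 2 with the largest change at 48 h above a mean log2 CPM of 1, and the 5 genes most like SAT1. Marker lists were fixed for myeloid cells and for erythroid, epithelial, fibroblast, B or plasma and T or NK cells. Summed T or NK markers held 6.58 to 8.22 CPM, nearly all from NCAM1, and fibroblast markers 1.37 to 2.22 CPM.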

Additional observations from a re-analysis of the deposited data

How the results depend on the processing

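SAT1 was higher with JIB-04 than in DMSO in all 17 alternatives at each time. These refit the same libraries, in which both treated libraries lay above both controls, so the shared direction is no separate support. The labels do not say whether the replicate numbers pair the samples. The correlation of replicate deviations ranged from -0.77 to 0.824 between groups. These deviations followed GC content in DMSO at 24 h and in both JIB-04 groups, so the correlations cannot decide it. With the replicate block 0 of the 10 polyamine genes were called at 48 h (SAT1 at an adjusted p of 0.0524) and 0 with JIB-04 over time. All-gene calls under the block were 8 at 48 h against 59, 2 in DMSO over time against 65 and 3 with JIB-04 over time against 31. A crossed block, added after the data were seen, called 1 of the 10 genes at 24 h, 2 at 48 h and 2 in DMSO over time, and over all genes 194, 263 and 593 in the same comparisons.

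With the GC trend removed, 1 gene was called at 24 h, 3 at 48 h, 1 for the difference, 5 in DMSO over time and 2 with JIB-04 over time. The replicate block with the GC trend removed gave 2, 2, 1 and 6 for the first 4 of these. DESeq2 called 1 gene at 24 h and 1 in DMSO over time, and the 48 h libraries alone gave 2 at 48 h. Leaving out each library gave 0 to 1 called genes at 48 h and 0 to 1 with JIB-04 over time. Removing 1 library leaves its group with a lone sample, assumed to vary like the others. The causes were not tested. Over all genes, calls ran from 0 to 1631 at 24 h (0 as reported), 0 to 1226 at 48 h (59), 0 to 167 for the difference (0), 1 to 2065 in DMSO over time (65) and 3 to 1016 with JIB-04 over time (31), each highest with the GC trend removed.

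Each sign change was in a log2 fold change that was not called, before or after. At 24 h they were SRM in limma-voom (0.00555) and AMD1 with the GC trend removed (-0.0122, and -0.0114 with the block). At 48 h they were SMS with RLE factors (-0.00518), DESeq2 (-0.00512) and 48 h libraries alone (-0.00153), and SRM with the GC trend removed (-0.17 with or without the block). PAOX at 48 h gave -0.0266 in limma-voom, -0.29 with the GC trend removed, -0.30 with the block as well and -0.0353 with the crossed block. Leaving out a library moved the 24 h values from -0.0539 to 0.32 for AZIN1, -0.45 to 0.24 for OAZ1, -0.29 to 0.34 for SRM, -0.0713 to 0.36 for AMD1 and -0.0673 to 0.65 for SMOX. It moved the 48 h values from -0.24 to 0.13 for AZIN1, -0.17 to 0.0361 for OAZ2, -0.0724 to 0.063 for SMS, -0.0613 to 0.30 for SRM and -0.54 to 0.43 for PAOX.

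In DMSO over time, SRM (0.10) and PAOX (0.13) turned positive with the GC trend removed, with or without the block, and PAOX with the crossed block (0.00407). For the difference between the effects SRM turned to -0.13 in both GC fits. With JIB-04 over time, OAZ2 gave -0.00596 without a filter, -0.00225 with the GC trend removed and -0.002 with the block as well, SRM gave -0.0282 and -0.0277 in the same GC fits, and AMD1 gave 0.0726 in both. Leaving out a library moved DMSO over time from -0.69 to 0.000151 for OAZ1, -0.34 to 0.29 for SRM, -0.56 to 0.15 for SMOX and -0.45 to 0.35 for PAOX. It moved JIB-04 over time from -0.18 to 0.23 for AZIN1, -0.0865 to 0.33 for OAZ1, -0.0868 to 0.093 for OAZ2, -0.14 to 0.0988 for SMS, -0.11 to 0.32 for SRM and -0.24 to 0.19 for AMD1. It moved the difference from -0.38 to 0.0347 for AZIN1, -0.20 to 0.43 for SRM and -0.88 to 0.0467 for PAOX. PAOX had 13 to 31 counts per library, which limits the precision of its values.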
